A study of Mus musculus with 2 samples.

Results

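The genes described here are those by which neutrophils are called into tissue and released from the marrow: 5 CXC chemokines (Cxcl1, Cxcl2, Cxcl3, Cxcl5 and Ppbp), the chemokine receptor gene Cxcr2, and the genes of granulocyte colony-stimulating factor, G-CSF (Csf3), and its receptor (Csf3r). They were chosen by name, 8 of the 31253 genes counted. Their unique molecular identifiers (UMIs, 1 for each captured RNA molecule) were counted in single cells of mouse pancreas taken with the BD Rhapsody system. There are 2 libraries. CP+EVs came from animals treated with Cae and EVs, and CP from animals treated with Cae alone. The series title names chronic pancreatitis and extracellular vesicles that exercise induces, whereas the condition label of both libraries says acute pancreatitis. The labels leave Cae unexplained, and how many animals went into a library, their strain and their age are not analysed here.

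CXC chemokines with an ELR motif bind CXCR2 on neutrophils and draw them along a gradient out of the blood. G-CSF, acting through its own receptor, drives the making of neutrophils in the marrow and their release. The ligand genes are switched on by inflammatory cytokines such as interleukin 1, tumour necrosis factor and interleukin 17, largely through the transcription factor NF-kB, in stromal cells as well as in leukocytes.

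The 5 ligand genes lie on the plus strand of mouse chromosome 5 within 146.579 kb (mm10, GENCODE vM21): Cxcl5 at chr5:90759360-90761624, Ppbp at chr5:90768518-90770063, Cxcl3 at chr5:90786103-90789600, Cxcl1 at chr5:90891241-90893115 and Cxcl2 at chr5:90903871-90905938. The receptor and G-CSF genes lie apart from them, Cxcr2 at chr1:74153989-74161246, Csf3r at chr4:126024550-126044440 and Csf3 at chr11:98701263-98703629. All 8 are annotated as protein coding. Promoter sequences from RefSeq (GRCm38.p6, 1 window per gene, 250 bases before to 50 after the RefSeq start) were matched for 6 of the 8 genes, without Cxcl5 and Csf3. The NF-kB consensus was searched on both strands and is in 2211 of 27025 promoter windows, or 8.18%. The Cxcl1, Cxcl2 and Cxcl3 windows had the same plus-strand letters for it, GGGAATTTCC, beginning 71, 97 and 73 bases before the RefSeq start. The RefSeq starts differ from the GENCODE starts given above, before which the letters begin 67, 69 and 75 bases. All 3 windows also had an overlapping match on the minus strand. These exact letters are in 24 windows on either strand, or 0.0888%. They are not in the windows of Ppbp, Cxcr2 and Csf3r, of which Csf3r had 1 match of the consensus with other letters. The last 120 bases before the RefSeq start are shown for the 3 genes because they share these letters. In CP most Cxcl1 UMIs nevertheless lay in fibroblasts, and most Cxcl2 and Cxcl3 UMIs in neutrophils. The shared letters are in capitals, and each sequence is the plus strand, 5′ to 3′.
Cxcl1, chr5:90891125-90891244: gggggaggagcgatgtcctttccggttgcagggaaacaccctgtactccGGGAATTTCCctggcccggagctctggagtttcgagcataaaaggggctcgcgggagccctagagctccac
Cxcl2, chr5:90903779-90903898: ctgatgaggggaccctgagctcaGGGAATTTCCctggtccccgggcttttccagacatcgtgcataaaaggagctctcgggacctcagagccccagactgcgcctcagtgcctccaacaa
Cxcl3, chr5:90785981-90786100: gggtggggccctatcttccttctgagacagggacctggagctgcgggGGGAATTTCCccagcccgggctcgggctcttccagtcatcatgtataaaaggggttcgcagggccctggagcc
A match describes the letters and is not evidence of binding. In the Cxcl1 and Cxcl2 stretches the letters CATAAA follow, and in Cxcl3 the TATA box letters TATAAA. On either strand CATAAA is found in 12.1% and TATAAA in 14.2% of all windows.

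The CP+EVs library gave 38532775 UMIs over 8845 barcodes (median 2884 each), and the CP library 51652425 UMIs over 13507 barcodes (median 1417 each). After a filter on genes and mitochondrial UMIs, 8799 CP+EVs and 13409 CP barcodes were kept. The libraries had 118 barcode sequences in common, 1.33% of the CP+EVs and 0.874% of the CP barcodes. Each barcode was gated to a cell class by UMIs of marker genes, none of them among the genes described, and a class name means barcodes that passed that gate. All 12 neutrophil, 8 fibroblast, 6 mesothelial and 7 T cell markers, and all 9 macrophage and 6 monocyte markers, were above the library level in their class in both libraries. Neutrophil barcodes numbered 30 in CP+EVs (0.341%) and 3038 in CP (22.7%), and acinar barcodes, the enzyme-secreting cells, 3324 in CP+EVs (37.8%) and 12 in CP (0.0895%). Macrophages and monocytes were taken as 1 class, with 400 barcodes in CP+EVs and 3420 in CP. Fibroblasts had 1472 barcodes in CP+EVs and 2676 in CP. With 1 library per group no test was possible. Intervals are 95% and cover counting error only, and each difference compares these libraries and not the treatments.

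Over all kept barcodes the described genes were lower in CP+EVs than in CP. Levels are UMIs of the gene per 1000000 UMIs of the summed barcodes (CPM). Cxcl1 stood at 392 CPM in CP+EVs and 811 CPM in CP, Cxcl2 at 309 CPM in CP+EVs and 1070 CPM in CP, and Cxcl5 at 0.883 CPM in CP+EVs and 67.0 CPM in CP. The receptor genes differed more widely, with Cxcr2 at 4.96 CPM in CP+EVs and 335 CPM in CP, and Csf3r at 4.91 CPM in CP+EVs and 291 CPM in CP. Cxcl3 had 33 UMIs in CP+EVs and 388 in CP, Csf3 had 5 in CP+EVs and 77 in CP, and Ppbp had 3 in CP+EVs and 27 in CP. Genes with at least 20 CPM in 1 library and a sum of at least 20 UMIs were called measured. All 5 measured genes among the 8 were past 2-fold lower in CP+EVs, where 10.7% of all measured genes were, and none was past 2-fold higher, where 5.02% were. A gene that is measured through 1 library alone had to differ, so such counts are descriptions. The sums depend on the makeup of each library, and in bulk of this kind fewer cells of a type and less RNA per cell cannot be told apart, so the genes are described class by class.

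**Figure D1:**
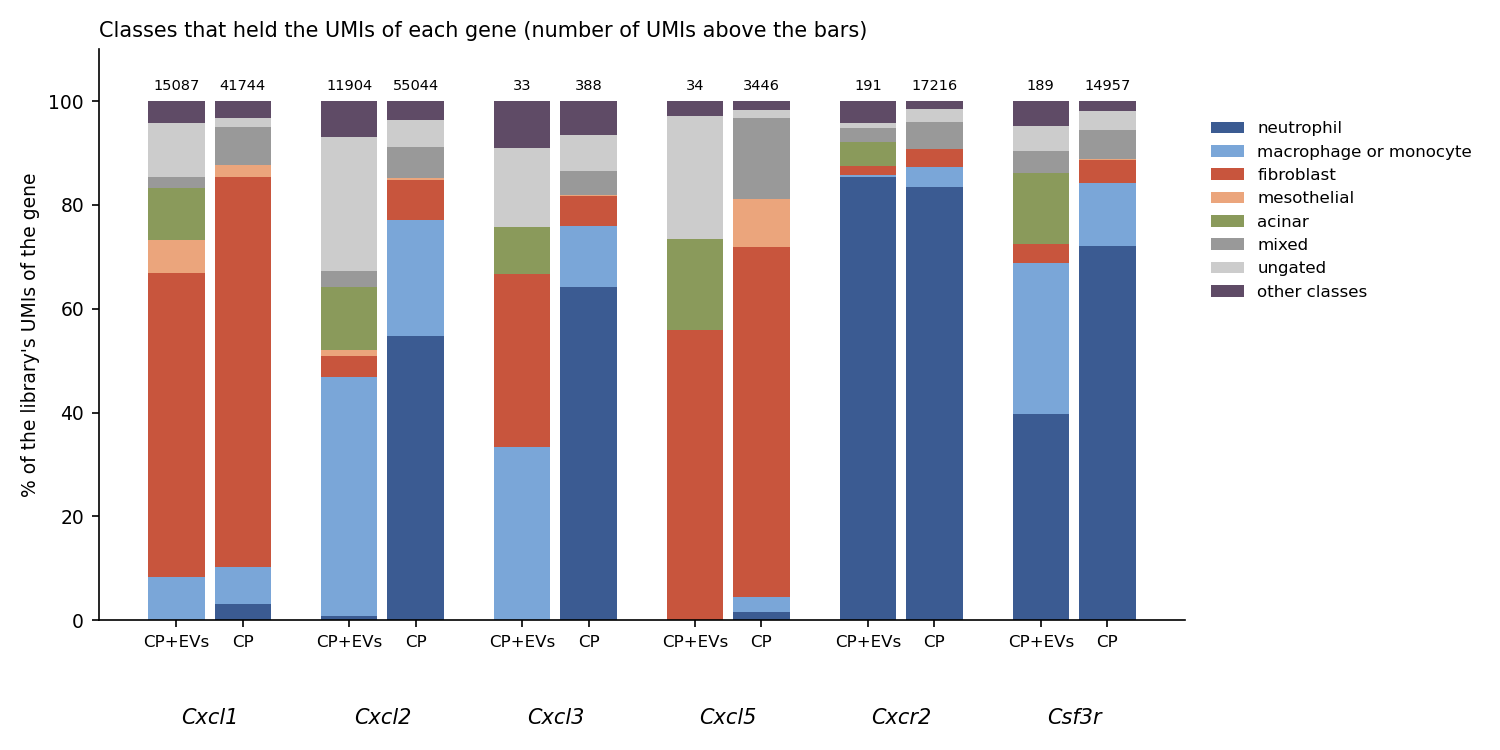
Share of each library's UMIs of a gene (%, vertical axis) by the gated class that held them, for CP+EVs and CP, with the UMIs of the gene above each bar. Fibroblasts held 58.7% of the Cxcl1 UMIs in CP+EVs and 75.1% in CP, and neutrophils held 0.823% of the Cxcl2 UMIs in CP+EVs and 54.8% in CP.

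The plot of shares shows where the UMIs of each gene lay. Fibroblasts were the main holders of Cxcl1, with 58.7% of its UMIs in CP+EVs and 75.1% in CP. For Cxcl2 the main holders differed between the libraries. Macrophages or monocytes held 45.9% of Cxcl2 UMIs in CP+EVs and 22.4% in CP, and neutrophils 0.823% in CP+EVs and 54.8% in CP. Cxcr2 lay mostly in neutrophils, which held 85.3% of it in CP+EVs and 83.4% in CP, although they were 30 of 8799 barcodes in CP+EVs. Of Csf3r, neutrophils held 39.7% in CP+EVs and 72.1% in CP, and macrophages or monocytes 29.1% in CP+EVs and 12.2% in CP. Acinar barcodes of CP+EVs held 1438 of the 11904 Cxcl2 UMIs and 1493 of the 15087 Cxcl1 UMIs of that library. Whether acinar cells made these RNAs was not tested. Ungated barcodes held 25.8% of Cxcl2 UMIs in CP+EVs and 5.30% in CP, so part of its source has no class name here.

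Cxcl1, one of the best studied neutrophil attractants of the mouse, was at 908 CPM (889 to 927) in CP+EVs fibroblasts and 1844 CPM (1823 to 1864) in CP fibroblasts. The log2 ratio, CP+EVs over CP, was −1.02 (−1.06 to −0.99), while the median gene of the class was at 0.01. A Cxcl1 UMI was found in 57.3% of CP+EVs fibroblast barcodes (median depth 5871.5 UMIs) and in 63.6% of CP ones (median depth 1432.5 UMIs). With each barcode thinned to 500 UMIs the shares were 21.3% in CP+EVs and 38.1% in CP. T cells, which are not known as a source, had 66.3 CPM in CP+EVs and 87.8 CPM in CP. A Cxcl1 UMI was in 16.0% of CP+EVs T cell barcodes (median depth 3355 UMIs) and 24.2% of CP ones (median depth 2806.5 UMIs), and after thinning in 3.94% in CP+EVs and 5.99% in CP. Fibroblast Cxcl1 was thus far above the T cell level in both libraries.

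In the shallowest, middle and deepest of 3 equal parts of the CP fibroblasts Cxcl1 was at 1230, 1501 and 1905 CPM, each above the 908 CPM of the CP+EVs fibroblasts. Within the class Cxcl1 was uneven from barcode to barcode. No Cxcl1 UMI was found in 42.7% of the CP+EVs and 36.4% of the CP fibroblast barcodes, and at least 10 were found in 16.4% of the CP+EVs and 19.5% of the CP barcodes. The highest barcode held 189 Cxcl1 UMIs in CP+EVs and 381 in CP. A share of 0.5 of the class's Cxcl1 UMIs lay in 79 barcodes of CP+EVs (5.37%) and in 119 of CP (4.45%), so few barcodes carried much of the sum in both libraries.

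Fibroblast barcodes were also split by short lists of adventitial and of matrix-remodelling genes. Barcodes with UMIs of both lists had Cxcl1 at 971 CPM in CP+EVs and 1891 CPM in CP. Those with the adventitial list alone had 847 CPM in CP+EVs and 1798 CPM in CP, and those with neither 1008 CPM in CP+EVs and 1489 CPM in CP. With the remodelling list alone the level was 478 CPM in CP+EVs, from 43 UMIs in 31 barcodes, and 1085 CPM in CP. Cxcl1 was lower in CP+EVs in all 4 subsets and lowest, within each library, in barcodes with the remodelling list alone.

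In mesothelial barcodes, from the lining of the organ, Cxcl1 stood at 891 CPM (835 to 950) in 114 CP+EVs barcodes and 713 CPM (669 to 759.5) in 124 CP barcodes. The log2 ratio was 0.32 (0.19 to 0.45). Its direction depended on how barcodes were weighted: after thinning to 500 UMIs it was −0.36, as the mean of per-barcode CPM −0.33, and without the 1% of barcodes with most Cxcl1 UMIs 0.044. One CP+EVs barcode held 208 of the 949 UMIs, or 21.9%. Mural barcodes of CP, 26 in number and with 4 of their 8 markers above the library level, had Cxcl1 at 1529 CPM, 1 barcode holding 26.8% of it.

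Leukocytes held less Cxcl1. Macrophages or monocytes had 465 CPM (439 to 492) in CP+EVs and 185 CPM (179 to 192) in CP, a log2 ratio of 1.33 (1.23 to 1.42). Over the settings tried this ratio ran between 0.34 and 2.03. After thinning, 14.2% of the CP+EVs and 11.1% of the CP barcodes of this class had a Cxcl1 UMI. Depth moved with the level: in the shallowest, middle and deepest parts of the CP class Cxcl1 was at 484, 242 and 154 CPM, and the shallowest part was as high as the whole CP+EVs class. Median depths were 5292.5 UMIs in CP+EVs and 1862 UMIs in CP, and the part of depth in the result was not tested. Neutrophils had 5 Cxcl1 UMIs in CP+EVs (90.6 CPM, 29.4 to 211) and 1309 in CP (234 CPM, 222 to 247). The CP+EVs interval includes the T cell level of that library, 66.3 CPM.

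**Figure D2:**
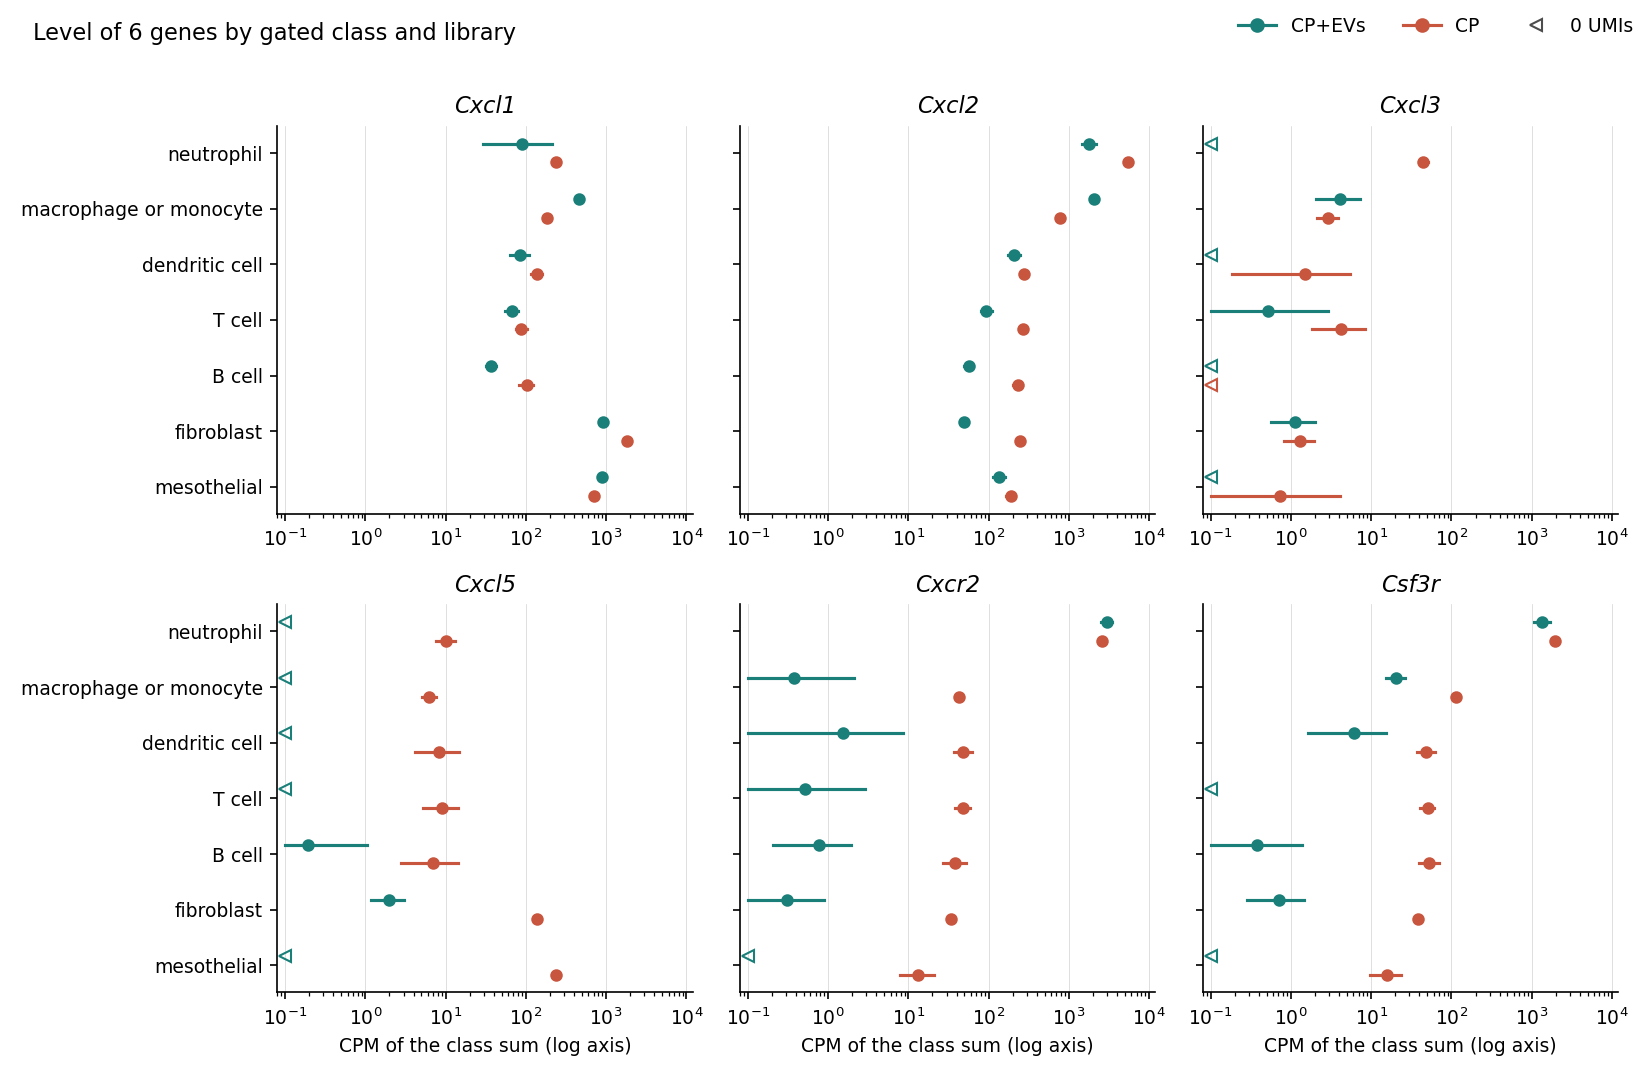
Level of 6 genes (CPM of the summed barcodes of a class, log axis) in 7 gated classes, CP+EVs above CP, with 95% Poisson intervals; open triangles mark sums with 0 UMIs. Cxcl1 was highest in fibroblasts and mesothelial barcodes, Cxcl2 in neutrophils and macrophages or monocytes, and Cxcr2 in neutrophils.

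Cxcl2, a chemokine made largely by myeloid cells, had 1776 CPM (1442 to 2164) in CP+EVs neutrophils and 5401 CPM (5341 to 5463) in CP neutrophils. The log2 ratio was −1.60 (−1.91 to −1.32), on 98 UMIs from 30 barcodes in CP+EVs and 30165 UMIs in CP. After thinning to 500 UMIs, 46.7% of the CP+EVs and 68.6% of the CP neutrophil barcodes had a Cxcl2 UMI. At least 10 Cxcl2 UMIs were in 3 of the 30 CP+EVs barcodes and in 1061 of the 3038 CP barcodes. The CP+EVs barcode with most held 16 of the 98. Over the settings tried the log2 ratio stayed between −1.73 and −1.28.

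In macrophages or monocytes Cxcl2 was the other way round, at 2044 CPM (1990 to 2099) in CP+EVs and 771 CPM (757.5 to 785) in CP. The log2 ratio was 1.41 (1.36 to 1.45), and the median gene of the class was at −0.22. The difference stood in both parts of the class: macrophage barcodes alone had 2284 CPM in CP+EVs and 1013 CPM in CP, and monocyte barcodes alone 1758 CPM in CP+EVs and 638 CPM in CP. In the shallowest, middle and deepest parts of the CP class Cxcl2 was at 1205, 792 and 739 CPM, each below the CP+EVs level. After thinning, 40.5% of the CP+EVs and 30.1% of the CP barcodes had a Cxcl2 UMI and the log2 ratio was 0.73, less than 2-fold, while T cells had one in 3.35% of CP+EVs and 10.5% of CP barcodes. At least 10 Cxcl2 UMIs were found in 33.5% of the class in CP+EVs and 8.74% in CP. With Cxcl1, 2 of the 4 genes measured in this class were past 2-fold higher in CP+EVs, where 5.48% of all genes were, and 2 (Cxcr2 and Csf3r) were past 2-fold lower, where 7.22% were.

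Fibroblast Cxcl2 was at 49.7 CPM in CP+EVs and 246 CPM in CP, below the T cell levels of 94.0 CPM in CP+EVs and 265 CPM in CP. After thinning, 2.79% of the CP+EVs and 18.9% of the CP fibroblast barcodes had a Cxcl2 UMI, below the T cell share in CP+EVs (3.35%) and above it in CP (10.5%). The 2 measures thus differ in CP, where 51 fibroblast barcodes had at least 10 Cxcl2 UMIs, and the part of free RNA in the fibroblast difference was not tested. In the T cells themselves 3 of the 4 genes measured (Cxcl2, Cxcr2 and Csf3r) were past 2-fold lower in CP+EVs, where 2.49% of all genes were, and none was past 2-fold higher, where 2.13% were. Among small classes, 69 CP eosinophil barcodes had Cxcl2 at 1984 CPM. ILC2 barcodes, innate lymphocytes of type 2, had 175 CPM in CP+EVs (24 UMIs) and 1175 CPM in CP (199 UMIs), with 70 of the CP UMIs in 1 barcode.

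The proportion of the 2 ligands differed between classes. Neutrophils had 19.6 Cxcl2 UMIs per Cxcl1 UMI in CP+EVs (8.12 to 61.7) and 23.0 in CP (21.8 to 24.4). Macrophages or monocytes had 4.40 in CP+EVs (4.13 to 4.68) and 4.16 in CP (3.99 to 4.33), close to each other although both genes were higher in CP+EVs. In mesothelial barcodes it was 0.151 in CP+EVs and 0.264 in CP, and in fibroblasts 0.0548 in CP+EVs and 0.134 in CP. How well the RNA of each gene was captured is not known here, so the ratio is compared across classes and is not a level of 1 gene against the other.

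**Figure D3:**
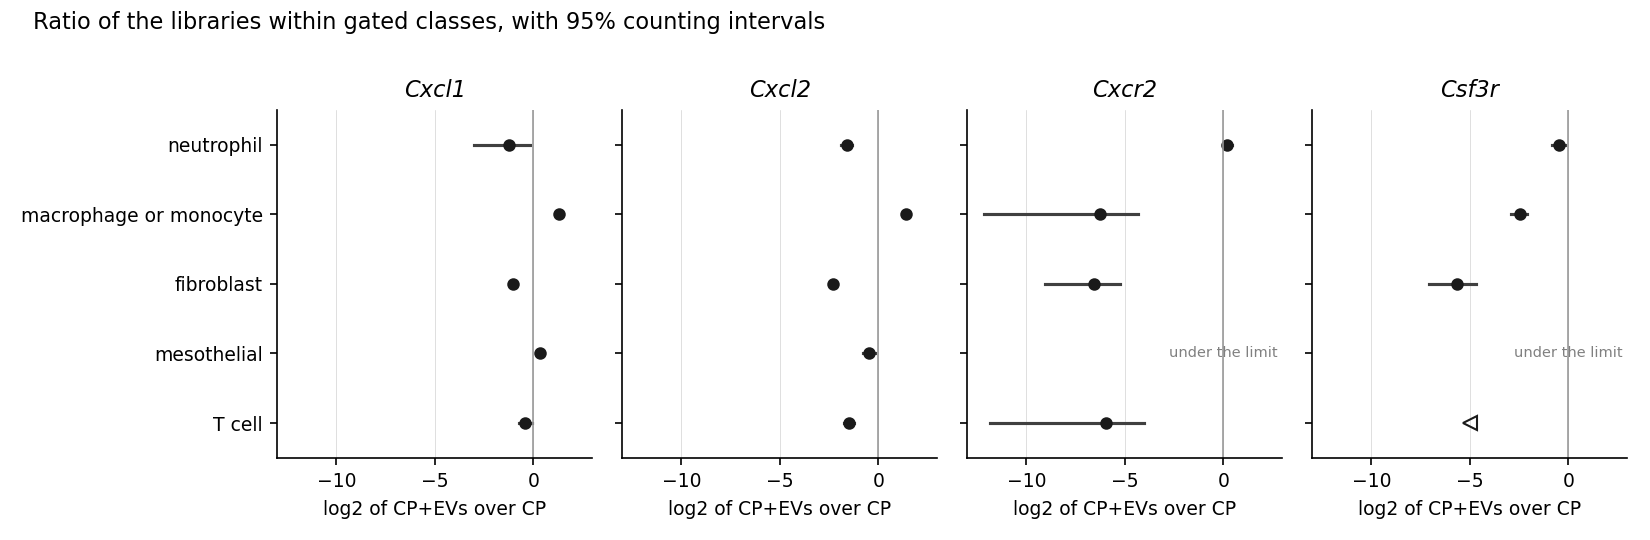
Log2 ratio of CP+EVs over CP (horizontal axis) of 4 genes in 5 gated classes, with 95% counting intervals; an open triangle is a bound, because CP+EVs had 0 UMIs, and "under the limit" marks sums too low to be measured. Cxcl1 and Cxcl2 lie right of 0 in macrophages or monocytes and left of 0 in neutrophils and fibroblasts, while Cxcr2 in neutrophils lies near 0.

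Cxcl3, a close relative of Cxcl2 in the same cluster, was rare. CP+EVs neutrophils had 0 Cxcl3 UMIs, which allows up to 54.4 CPM. CP neutrophils had 44.6 CPM (39.2 to 50.5), below that limit, so a difference was not detectable at this depth. The 249 UMIs of the CP neutrophils were 64.2% of the library's Cxcl3, and 3.32% of the barcodes had one, against 0.562% of CP T cells. A share of 0.5 of them lay in 15 barcodes, and 5 barcodes had at least 10 each. Of the 33 Cxcl3 UMIs of CP+EVs, 11 lay in macrophages or monocytes and 11 in fibroblasts.

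Cxcl5, an attractant made by epithelial and stromal cells, separated the libraries most among the ligands. Fibroblasts had 1.95 CPM (1.17 to 3.04) in CP+EVs, from 19 UMIs, and 136 CPM (131 to 142) in CP, from 2320 UMIs. The log2 ratio was −6.09 (−6.87 to −5.48). Mesothelial barcodes had 0 Cxcl5 UMIs in CP+EVs and 318 in CP (236 CPM, 210 to 263). Against a floor of 3 counts the gene was 83.7-fold lower in CP+EVs. That value is not a lower limit, since the exact interval reached down to 67.6-fold. After thinning to 500 UMIs the fitted log2 ratio of Cxcl5 in mesothelial barcodes was −4.13, a smaller difference. T cells had 0 Cxcl5 UMIs in CP+EVs and 8.94 CPM in CP, so both CP classes stood above the T cell level. In fibroblasts all 5 measured genes were past 2-fold lower in CP+EVs, where 6.87% of all genes were, and none higher, where 5.37% were, but Cxcl2, Cxcr2 and Csf3r had lower CPM there than in T cells in CP.

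Few barcodes held Cxcl5. A Cxcl5 UMI was found in 0.543% of CP+EVs and 11.8% of CP fibroblast barcodes. Among T cells it was found in 0 of 507 CP+EVs barcodes, which allows a share of up to 0.592%, and in 16 of 534 CP barcodes. After thinning the fibroblast shares were 0.0679% in CP+EVs and 3.62% in CP. A share of 0.5 of the CP fibroblast sum lay in 14 barcodes, and 1 barcode alone held 413 of the 2320 UMIs. Among the 124 CP mesothelial barcodes, 4 held a share of 0.5 of the 318 UMIs, and 75% had none. The highest CP+EVs fibroblast barcode held 8. Without the 1% of barcodes with most Cxcl5 UMIs, the log2 ratio was −9.92. Since only 0.543% of the CP+EVs barcodes had such a UMI, this left none in CP+EVs. That value is therefore set by the 0.5 counts added and is not a measured ratio.

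Fibroblasts and mesothelial cells were treated as allied classes, a choice made after values were seen. Barcodes with markers of both were therefore not set aside as mixed, so doublets of these classes were not screened out. Where the fibroblast class was split by UMIs of mesothelial markers, Cxcl5 in CP followed them. In CP+EVs 4 barcodes had at least 3 such UMIs, and they had no Cxcl5 UMI. The 73 CP barcodes with at least 3 had Cxcl5 at 1177 CPM (1118 to 1239) and held 1461 of the 2320 UMIs, 63.0%. The 291 CP barcodes with 1 or 2 had 74.1 CPM and the 2312 with none 50.1 CPM. Depth moved with this split, since the median CP barcode had 12858 UMIs in the highest part and 1276 in the lowest, and its part in the result was not tested. Among barcodes with no mesothelial UMI Cxcl5 was at 2.23 CPM in CP+EVs and 50.1 CPM in CP, a log2 ratio of −4.45. From the most to the fewest mesothelial UMIs Cxcl1 was at 1731, 1079 and 881 CPM in CP+EVs, the first from 55 UMIs in 4 barcodes, and at 1553, 1660 and 1912 CPM in CP, the opposite order.

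**Figure D4:**
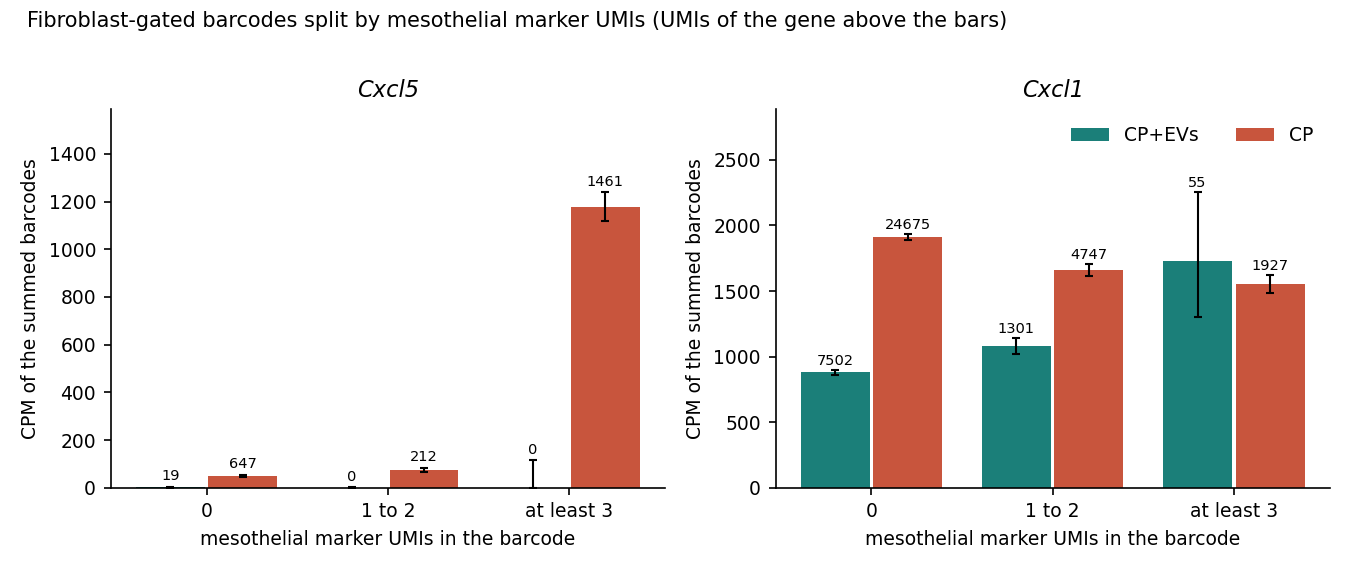
Cxcl5 and Cxcl1 (CPM of the summed barcodes) in fibroblast barcodes split by their UMIs of mesothelial marker genes, CP+EVs left of CP, with 95% Poisson intervals and the UMIs of the gene above each bar. In CP, Cxcl5 reached 1177 CPM in barcodes with at least 3 mesothelial UMIs and 50.1 CPM in those with none, while Cxcl1 was at 1553 and 1912 CPM.

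Ppbp, which encodes a chemokine precursor stored in platelets, was seen in 2 CP+EVs and 12 CP barcodes. The 2 CP+EVs barcodes were an endothelial one with 2 UMIs and a macrophage or monocyte with 1. Of the CP barcodes 10 were macrophages or monocytes and held 25 of the 27 UMIs. Among these 10, 9 also had UMIs of Pf4, the neighbouring chemokine gene that is likewise known from platelets, 100 in all, and none of the 10 had a UMI of the platelet marker list. At these counts no level was compared.

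Cxcr2, the receptor that binds all 5 ligands, was a neutrophil gene in these libraries. CP+EVs neutrophils had 2953 CPM (2517 to 3443) and CP neutrophils 2571 CPM (2529 to 2613), a log2 ratio of 0.20 (−0.03 to 0.42). A Cxcr2 UMI was found in 73.3% of the CP+EVs and 74.1% of the CP neutrophil barcodes, and after thinning in 56.7% in CP+EVs and 56.5% in CP. A difference within neutrophils was therefore not detectable at this depth, while neutrophils were 0.341% of the CP+EVs and 22.7% of the CP barcodes. Of the 4 measured genes with UMIs in both libraries' neutrophils, Cxcl1 and Cxcl2 were past 2-fold lower in CP+EVs, where 23.2% of all genes were, and none was higher, where 16.0% were. Cxcl3, which was measured through CP alone, is left out of that count, but the shares over all genes include such genes. With Cxcl3 the count is 3 of 5 measured genes past 2-fold lower.

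Outside neutrophils Cxcr2 was low. Macrophages or monocytes had 0.374 CPM in CP+EVs (1 UMI) and 42.4 CPM in CP, fibroblasts 0.307 CPM in CP+EVs and 34.1 CPM in CP, and T cells 0.522 CPM in CP+EVs and 47.9 CPM in CP. After thinning, a Cxcr2 UMI was in 4.39% of macrophage or monocyte, 3.74% of fibroblast and 2.43% of T cell barcodes in CP, and in none of these barcodes in CP+EVs. Small CP classes of 38 barcodes each were higher: mast cells or basophils had 233 CPM (127 to 391) from 14 UMIs, erythroid barcodes 127 CPM (61.0 to 234) from 10 UMIs, and ILC2 88.6 CPM (49.6 to 146) from 15 UMIs. In CP the level was lower in deeper barcodes of both large classes: the shallowest, middle and deepest parts had 139, 96.2 and 23.2 CPM in fibroblasts and 198, 66.1 and 27.2 CPM in macrophages or monocytes. In CP neutrophils the order was the opposite, with 1556, 2537 and 2823 CPM.

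Csf3r, the receptor for G-CSF, had 1359 CPM (1069 to 1703) in CP+EVs neutrophils and 1930 CPM (1894 to 1967) in CP neutrophils. The log2 ratio was −0.50 (−0.85 to −0.18), less than 2-fold. A Csf3r UMI was found in 66.7% of the CP+EVs and 76.2% of the CP neutrophil barcodes, and after thinning in 36.7% in CP+EVs and 53.8% in CP. In thinned CP neutrophils 36.2% of the barcodes had both Cxcr2 and Csf3r, and the product of their separate shares was 30.4%. Cxcl2 and Cxcr2 were together in 40.9%, with a product of 38.7%.

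Unlike Cxcr2, Csf3r had a higher CPM in macrophages or monocytes than in T cells. It was at 20.6 CPM (15.5 to 26.8) there in CP+EVs and 115 CPM (109 to 120) in CP, while T cells had 0 UMIs in CP+EVs and 50.5 CPM (40.9 to 61.7) in CP. The log2 ratio in macrophages or monocytes was −2.47 (−2.89 to −2.09), and −1.64 after the T cell level of each library had been taken off. After thinning, 0.5% of the CP+EVs and 7.66% of the CP macrophage or monocyte barcodes had a Csf3r UMI, with 0% of CP+EVs and 2.81% of CP T cell barcodes. In the shallowest, middle and deepest parts of the CP class Csf3r was at 259, 144 and 98.7 CPM, each above the CP+EVs level. The neutrophil granule gene Ngp moved with it in this class, at 1.87 CPM in CP+EVs and 47.4 CPM in CP, and its part in the Csf3r difference was not tested.

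The 2 receptor genes also stood in different proportion by class. Neutrophils had 0.460 Csf3r UMIs per Cxcr2 UMI in CP+EVs (0.345 to 0.608) and 0.751 in CP (0.732 to 0.770). Macrophages or monocytes had 55 Csf3r UMIs and 1 Cxcr2 UMI in CP+EVs, and a ratio of 2.70 (2.47 to 2.95) in CP. In CP, T cells had 1.05 (0.784 to 1.42) and fibroblasts 1.14 (1.02 to 1.27). Macrophage barcodes alone (2.53) and monocyte barcodes alone (2.78) were both above the intervals of T cells and fibroblasts in CP. CP plasma cells had 2.45 (1.18 to 5.48), from 27 Csf3r and 11 Cxcr2 UMIs.

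**Figure D5:**
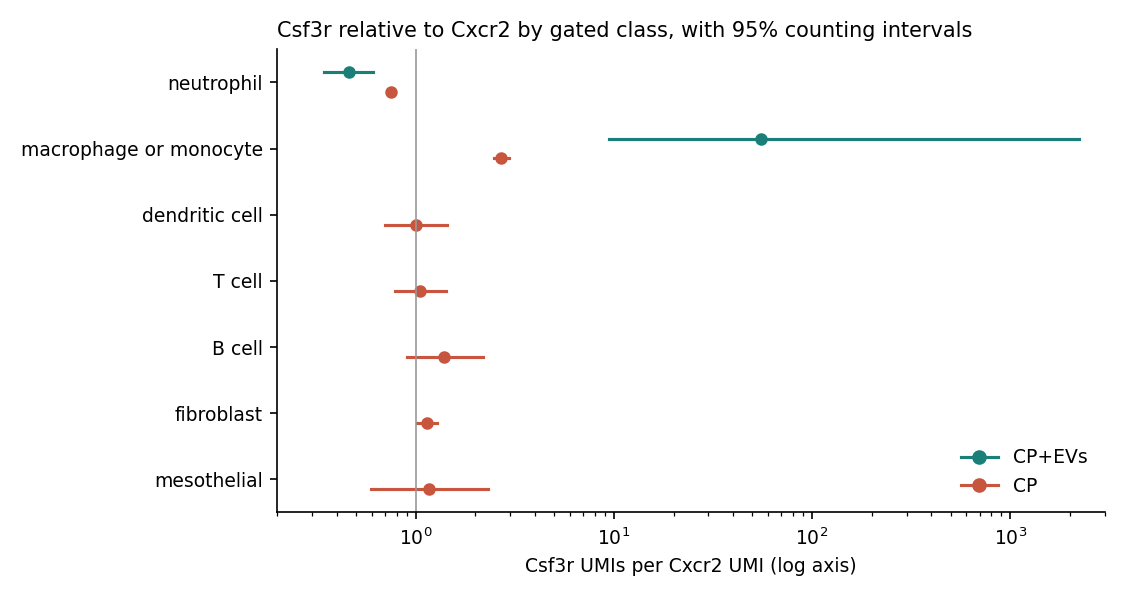
Csf3r UMIs per Cxcr2 UMI (log axis) by gated class for CP+EVs and CP, with exact 95% counting intervals, for sums of at least 20 UMIs of both genes together. Macrophages or monocytes of CP stood at 2.70 and neutrophils of CP at 0.751, with T cells at 1.05 and fibroblasts at 1.14 between them.

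Neutrophil barcodes were split by UMIs of Ltf, Camp or Ngp, granule genes of immature neutrophils that are also among the 12 gate markers. In CP the 735 barcodes with such a UMI were lower than the 2303 without in Cxcl2 (3259 CPM with and 6304 CPM without), Cxcr2 (2063 CPM with and 2785 CPM without) and Csf3r (1204 CPM with and 2236 CPM without). Their median depths were 1422 UMIs with and 1563 UMIs without. In CP+EVs 8 barcodes had such a UMI (median depth 2821.5 UMIs) and 22 did not (median depth 1296.5 UMIs). There Cxcl2 was at 1007 CPM with and 2319 CPM without. Csf3r was at 350 CPM with, from 8 UMIs, and 2072 CPM without, from 67 UMIs. Cxcr2 in CP+EVs was at 3502 CPM (2777 to 4358) with and 2566 CPM (2044 to 3181) without. These intervals overlap, so no order was shown for Cxcr2 there.

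Csf3, the G-CSF gene, was barely captured, with 5 UMIs in CP+EVs and 77 in CP. In CP+EVs 3 of the 5 UMIs lay in acinar barcodes and 1 in fibroblasts. In CP 25 UMIs lay in macrophages or monocytes (1.57 CPM), 24 in neutrophils (4.30 CPM) and 12 in fibroblasts (0.706 CPM). CP T cells had 0 UMIs, which allows 1.58 CPM, so the macrophage or monocyte level is not above what T cells could hold, while the neutrophil level (2.75 to 6.39) is. The 73 CP fibroblast barcodes with at least 3 mesothelial UMIs held 6 of the 12 fibroblast UMIs (4.83 CPM, 1.77 to 10.5). The lower end of that interval is above 1.58 CPM, which stands for 3 counts. It is below 1.94 CPM, the upper end of the exact interval for 0 UMIs in CP T cells. A level above what T cells could hold was therefore not shown for these fibroblast barcodes. The mesothelial class itself had 0 Csf3 UMIs in CP.

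Genes that act on the ligands or beside them were counted from lists. Of 23 genes that induce the ligands or control them through NF-kB, 17 were measured in macrophages or monocytes, 4 past 2-fold higher and 1 lower in CP+EVs, where 5.48% of all genes were higher and 7.22% lower. The median log2 ratio was 0.00, against −0.22 over all genes. The cytokine gene Il6 was at 301 CPM in CP+EVs and 47.7 CPM in CP. Nfkbiz, which encodes a nuclear partner of NF-kB, was at 964 CPM in CP+EVs and 273 CPM in CP, and Il1rn, the interleukin 1 receptor antagonist, at 467 CPM in CP+EVs and 144 CPM in CP. Osm, which encodes oncostatin M, was lower, at 59.1 CPM in CP+EVs and 178 CPM in CP.

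In fibroblasts 17 of the 23 were measured, 1 higher and 5 lower, where 5.37% of all genes were higher and 6.87% lower, with a median of −0.45 against 0.01 over all genes. The higher one was Cebpd, a transcription factor gene, at 1309 CPM in CP+EVs and 507 CPM in CP. Il1b, the interleukin 1 beta gene, was at 30.8 CPM in CP+EVs and 279 CPM in CP there, below the T cell level of 61.1 CPM in CP+EVs and 363 CPM in CP. In neutrophils 19 were measured, 1 higher and 7 lower, where 16.0% of all genes were higher and 23.2% lower, with a median of −0.81 against −0.06. The higher one, Lif, rests on 2 UMIs in CP+EVs. Tnf, the tumour necrosis factor gene, had 4 UMIs in CP+EVs (72.5 CPM) and 2002 in CP (358 CPM).

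Other attractants and receptors of neutrophils had 13 measured genes in macrophages or monocytes, none past 2-fold higher and 7 lower in CP+EVs, where 5.48% of all genes were higher and 7.22% lower, with a median of −1.10. C5ar1, the complement C5a receptor, was at 169 CPM in CP+EVs and 680 CPM in CP, and the formyl peptide receptor gene Fpr2 at 33.6 CPM in CP+EVs and 130 CPM in CP. In fibroblasts 11 were measured, 1 higher and 6 lower, where 5.37% of all genes were higher and 6.87% lower, with a median of −1.20. One of the lower ones, C5ar1, was at 2.05 CPM in CP+EVs and 76.4 CPM in CP fibroblasts, below the T cell level of 4.18 CPM in CP+EVs and 89.4 CPM in CP. Cxcl12, the ligand of CXCR4 that keeps neutrophils in the marrow, was at 193 CPM in CP+EVs and 808 CPM in CP there. Of the other colony-stimulating factors and their receptors, 5 were measured in macrophages or monocytes, none higher and 1 lower, where 5.48% of all genes were higher and 7.22% lower. In fibroblasts 5 were measured, none higher and 4 lower, where 5.37% of all genes were higher and 6.87% lower. The lower ones were Csf1r, Csf2ra, Csf2rb and Csf2rb2, receptor genes known from myeloid cells. Csf2rb was at 7.38 CPM in CP+EVs and 55.7 CPM in CP fibroblasts, with 18.3 CPM in CP+EVs and 53.6 CPM in CP T cells, and Csf1r at 12.0 CPM in CP+EVs and 81.2 CPM in CP fibroblasts, with 24.0 CPM in CP+EVs and 53.6 CPM in CP T cells.

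Below the G-CSF receptor, 11 signalling genes were measured in macrophages or monocytes, 2 higher in CP+EVs and none lower, where 5.48% of all genes were higher and 7.22% lower. In fibroblasts 7 were measured, none lower and 1 higher, where 6.87% of all genes were lower and 5.37% higher. The higher one was Socs3, an inhibitor of cytokine signalling, at 751 CPM in CP+EVs and 336 CPM in CP. Of the adhesion genes by which neutrophils cross vessels, 8 were measured in macrophages or monocytes, none lower and 2 higher. Of all genes in that class 7.22% were lower and 5.48% higher. The 2 higher ones were Vcam1, at 50.5 CPM in CP+EVs and 6.14 CPM in CP, and Icam1, at 42.6 CPM in CP+EVs and 20.4 CPM in CP. Of 8 measured in fibroblasts none was higher, where 5.37% of all genes were, and 6 were lower, where 6.87% were.

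The genes most like each described gene were found over 29 class and library sums, by Pearson's r of log2(CPM + 10) among 11258 genes. These points share 2 libraries and their free RNA, and r is given as a description. Cxcr2 was most like Il1f9 (r = 0.968), and Csf3r came next (r = 0.959). Csf3r itself was most like Cd33 (r = 0.966), Slfn4 (r = 0.963) and Fpr1 (r = 0.963). Cxcl2 was most like Cd300ld (r = 0.923) and Clec4e (r = 0.911), both myeloid receptor genes. Cxcl1 was most like Igfbp4 (r = 0.857), which encodes a binding protein of insulin-like growth factors. Cxcl3 was most like Olr1 (r = 0.829) and Il1a (r = 0.829), and Cxcl5 like Sez6l (r = 0.797).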

How the data were processed

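The authors deposited 1 matrix of raw UMI counts per library. The submitters' processing notes name CASAVA 1.8, UMI-tools, Seurat and the build mm10, without their roles; of the aligner, the annotation and the cell calling nothing is stated. The lowest barcode had 501 UMIs.

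Kept barcodes had 200 or more genes and no more than 25% mitochondrial UMIs, which removed 46 CP+EVs and 98 CP barcodes. Core barcodes of a class had at least 2 markers, 3 UMIs of them and 3 times the mean marker share of the libraries. Barcodes with at least 30% of the median core share then joined the class of the highest relative share. Barcodes whose unrelated second class exceeded 0.5 of the first were set aside as mixed (449 in CP+EVs and 1425 in CP), which stands in for a doublet caller, and 1014 in CP+EVs and 1313 in CP stayed ungated. The second step, 4 of 166 markers left out and some allied classes, fibroblast with mesothelial among them, were chosen after values were seen. The genes and lists were chosen with earlier results of these data known.

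UMIs were summed per class and library. Levels have exact Poisson, shares Clopper-Pearson and ratios conditional exact 95% intervals. The log2 ratio adds 0.5 to both counts. A sum of 0 is set against a floor of 3 counts. Thinning drew 500 UMIs from each barcode. From each list up to 4 measured genes with the largest absolute log2 ratio in the class could be named, and genes like a described gene were ranked among those with at least 300 UMIs. Alternatives were other gates, filters, scalings and weightings of barcodes. The ratio step was tested on simulated counts. Python 3.11.15, numpy 2.4.6, scipy 1.17.1 and pandas 2.3.3 were used.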

Additional observations from a re-analysis of the deposited data

Results flagged for a closer look

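Cxcl1 and Cxcl2 differed between the libraries in opposite directions in different classes, which is what singled them out. The log2 ratio of Cxcl1 (CP+EVs over CP) was 1.33 in macrophages or monocytes, −1.23 in neutrophils, −1.10 in ILC2 and −1.02 in fibroblasts. That of Cxcl2 was 1.41 in macrophages or monocytes, −1.60 in neutrophils and −2.72 in ILC2. The neutrophil values rest on 5 Cxcl1 UMIs and 98 Cxcl2 UMIs in 30 CP+EVs barcodes, and the ILC2 values on 11 and 24 UMIs in 42 CP+EVs barcodes. The difference between classes was not tested, since each group has 1 library.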

How the results depend on the processing

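No paired analysis was possible because each group has 1 library, which also leaves no library to leave out. Of 36 measured ratios, 26 were at least 2-fold with an interval that excludes 1, and all 26 kept their sign under each planned setting that gave a value. As the mean of per-barcode CPM 20 of 23 stayed past 2-fold, and at 500 UMIs 23 of 26. Cxcl1 in macrophages or monocytes (1.33) was 0.44 as that mean and 0.34 at 500 UMIs. The log2 ratio of Cxcl2 in macrophages or monocytes (1.41) was 1.33 with mixed barcodes given to a class, 1.63 with median of ratios scaling, 0.81 as the mean of per-barcode CPM, 1.58 without the 1% of barcodes with most UMIs and 0.73 at 500 UMIs. That of Csf3r there (−2.47) was −3.77 at 500 UMIs. Mesothelial Cxcl1 (0.32) was −0.33 as the mean of per-barcode CPM, −0.36 at 500 UMIs and 0.044 without the 1%. Fibroblast Cxcl1 (−1.02) was −0.86 as that mean and −0.92 at 500 UMIs, and fibroblast Cxcl5 (−6.09) was −9.92 without the 1%. The next settings were chosen after seeing the data. With the T cell level taken off, Cxcl2 in macrophages or monocytes was 1.94, Csf3r −1.64 and fibroblast Cxcl1 −1.06, and dendritic cell Cxcr2 (−4.42, from 1 and 64 UMIs) turned to 1.21. Cxcl2 was 1.17 in macrophage and 1.46 in monocyte barcodes alone. In fibroblast barcodes without mesothelial UMIs Cxcl1 was −1.12 and Cxcl5 −4.45. Apart from that of fibroblast Cxcl5 without the 1%, the cause of these shifts was not tested. Without the filter on low genes, the genes past 2-fold numbered 7830 over all kept barcodes (1124 with it), 10302 in neutrophils (2211), 4586 in macrophages or monocytes (816), 5237 in mesothelial barcodes (1040) and 5463 in fibroblasts (830). Depth limits Cxcl3, Ppbp and Csf3 in CP+EVs.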

Other observations

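Il17a, which encodes a T cell cytokine that induces Cxcl1 and Csf3 in stromal cells, lay in T cells of both libraries, at 15.1 CPM (10.1 to 21.8) in CP+EVs from 29 UMIs and 104.7 CPM (90.6 to 120.3) in CP from 199 UMIs. Fibroblasts had 3 Il17a UMIs in CP+EVs and 8 in CP.

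Ackr1, a receptor that binds these chemokines without signalling, was at 107 CPM (1043 UMIs) in CP+EVs fibroblasts and 41.8 CPM (711 UMIs) in CP fibroblasts, the opposite direction to Cxcl1 there. Il17a and Ackr1 were named here after their values were seen.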
